A study of Mus musculus with 6 samples.

Results

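The genes described here are 40 named genes of the heat-shock response and of the unfolded protein response, measured on microarrays of mature CD4 SP thymocytes that lacked the histone demethylases Jmjd3 and Utx. The genes were chosen by name from these pathways and not by a cut on their values, but with earlier results of these data known. They comprise 12 cytosolic chaperones and cochaperones, 3 chaperones of mitochondria, 11 chaperones and related genes of the endoplasmic reticulum (ER) and 14 sensors, transcription factors and effectors of stress, called stress factors hereafter. Of the 40 genes, 37 had a value of their own among the 19752 genes tested. *Hspa1b* is annotated to a value that it shares with *Hspa1a*, and *Hsp90ab1* and *Hsf1* are not analysed here.

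RNA came from sorted Vα2hi CD24lo CD4 SP thymocytes, CD4 cells that are about to leave the thymus, with 3 arrays for wild-type mice and 3 for dKO mice. All mice carried the OT-II transgene, which gives the CD4 cells a single T-cell receptor. In dKO mice, whose genotype the labels write as Jmd3f/f-utxf/f, Cre under control of *Cd4* deleted the floxed exons of both genes from the double positive (DP) stage onwards, whereas wild-type mice carried no Cre. An effect of Cre itself and an effect of the deletions cannot be told apart in this comparison. The sample labels give no age of the mice. Replicates are called biological there, but separate mice are not mentioned, and p-values rest on the spread among 3 such samples per genotype. The arrays held RNA of whole sorted populations, in which fewer cells that express a gene and less RNA per cell cannot be told apart.

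Chaperones are proteins that help other proteins to fold. In the cytosol, unfolded proteins release heat shock factors such as Hsf1, which bind heat shock elements and raise transcription of Hsp70 proteins, their Hsp40 partners and Hsp90. In the ER, unfolded proteins are sensed by Ire1 (encoded by *Ern1*), Perk (*Eif2ak3*) and Atf6. Ire1 splices *Xbp1* mRNA into the form that encodes an active transcription factor, Atf6 is cut into an active factor and Perk phosphorylates eIF2, which favours translation of Atf4 and then expression of Chop (*Ddit3*). In T cells, these pathways are known to accompany activation and the rise in protein synthesis and secretion that goes with it, whereas mature thymocytes are resting cells.

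The promoters of some of these genes carry DNA elements through which both responses act, and 5 promoters are printed to show those elements beside the values that follow. The windows ran from 250 bases before to 50 bases after each start site in RefSeq annotation of the GRCm38.p6 build, and 34 of the 40 genes had a window. The core of the heat shock element was searched as GAANNTTC or TTCNNGAA, and the ER stress element as CCAAT followed by CCACG at a distance of 9 bases, on both strands. Printed below are the 250 bases before the start on the strand of the gene, with the matched letters in capitals. The first 2 promoters hold heat shock elements, the next 2 hold the ER stress element and belong to genes higher in dKO cells, and that of *Calr* holds the same element in the other orientation although its level was not called.
Hspa1a, chr17:34972157-34972406, minus strand: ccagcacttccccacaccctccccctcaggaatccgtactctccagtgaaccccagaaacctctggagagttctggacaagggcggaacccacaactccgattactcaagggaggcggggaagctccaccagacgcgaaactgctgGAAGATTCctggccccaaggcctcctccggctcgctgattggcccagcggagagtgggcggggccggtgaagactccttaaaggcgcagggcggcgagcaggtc
Hspe1, chr1:55087898-55088147, plus strand: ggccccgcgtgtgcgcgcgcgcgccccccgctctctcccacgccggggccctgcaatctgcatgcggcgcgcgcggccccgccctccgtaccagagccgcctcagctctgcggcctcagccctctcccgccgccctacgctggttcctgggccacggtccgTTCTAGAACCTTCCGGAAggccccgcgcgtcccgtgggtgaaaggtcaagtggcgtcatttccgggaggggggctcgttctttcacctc
Hspa5, chr2:34771840-34772089, plus strand: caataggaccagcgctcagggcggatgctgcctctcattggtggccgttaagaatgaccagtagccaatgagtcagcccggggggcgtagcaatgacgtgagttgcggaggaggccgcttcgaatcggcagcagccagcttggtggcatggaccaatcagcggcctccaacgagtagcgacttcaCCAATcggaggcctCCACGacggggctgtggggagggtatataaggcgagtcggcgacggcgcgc
Pdia6, chr12:17266339-17266588, plus strand: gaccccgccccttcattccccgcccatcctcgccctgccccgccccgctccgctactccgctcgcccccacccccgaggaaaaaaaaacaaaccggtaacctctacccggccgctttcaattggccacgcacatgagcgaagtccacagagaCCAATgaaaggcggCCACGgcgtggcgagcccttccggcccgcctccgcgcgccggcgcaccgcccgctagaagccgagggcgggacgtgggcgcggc
Calr, chr8:84846932-84847181, minus strand: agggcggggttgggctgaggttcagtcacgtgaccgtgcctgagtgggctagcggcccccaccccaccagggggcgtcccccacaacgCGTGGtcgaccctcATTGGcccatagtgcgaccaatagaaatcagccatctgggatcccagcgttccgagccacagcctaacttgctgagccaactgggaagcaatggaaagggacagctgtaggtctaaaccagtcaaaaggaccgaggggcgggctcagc

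Heat shock element cores were found mostly in the cytosolic and mitochondrial chaperones. They lay in the windows of 7 of 9 cytosolic chaperones (*Hspa1a*, *Hspa1b*, *Hsph1*, *Dnaja1*, *Dnajb4*, *Hspb1* and *Bag3*), of 2 of 2 mitochondrial chaperones (*Hspd1* and *Hspe1*), of 0 of 11 ER genes and of 1 of 12 stress factors (*Eif2ak3*). The core is short and 17% of all 27025 genes with a window held it. In *Hspa1a* the match began 104 bases before the start. *Hspe1* and *Hspd1* are transcribed in opposite directions from a shared promoter, and their windows have 285 bases in common, so that the 3 overlapping matches, at 89, 84 and 79 bases before the start of *Hspe1*, are the same letters for both genes. *Dnajb1* and *Hspa4* had no match in their windows.

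The ER stress element was found in 6 of 11 ER genes, *Hspa5*, *Pdia6*, *Hsp90b1*, *Calr*, *Canx* and *Dnajc3*, and in no gene of the other 3 groups. Across all genes with a window, 37 (0.137%) held it. It began 65 bases before the start in *Hspa5*, 98 in *Pdia6* and 162 in *Calr*, and *Hsp90b1* held it at both 212 and 107 bases. The composite core bound by Chop and Atf4, TGATGCAA, was found in *Herpud1*, *Atf3* and *Chac1* and in 1.03% of all genes. TGACGTGG, the core of the UPR element, was found in 0 of the 34 genes and in 0.714% of all genes. A match describes the letters only, and binding was not measured.

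The 6 arrays had medians of 6.27 to 6.32 on the log2 scale and correlated at 0.998 to 0.999 within a genotype and at 0.991 to 0.993 between genotypes. *Kdm6a*, which encodes Utx, fell from 10.16 ± 0.05 to 9.49 ± 0.09 (SD, n = 3, adjusted p = 2.6e-05 by limma), and *Kdm6b*, which encodes Jmjd3, was 0.09 lower (adjusted p = 0.32). Only some exons of each gene were floxed, so that probes outside them do not report the deletion. The cause of the contrast between *Kdm6a* and *Kdm6b* was not tested. In thymocytes of mice with either gene deleted, the study checked the deletion by PCR of genomic DNA and the loss of protein by immunoblot. Of 9 T-cell markers, *Cd28* was higher in dKO cells by 0.24, *Cd5* fell by 0.43 and 7 were not called, among them the defining *Cd3e*, at 13.06 in wild-type and 13.07 in dKO cells, and *Cd4*, at 12.21 and 12.30. Each genotype had 3 arrays, and this number limits the precision of every difference below.

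All 3 mitochondrial chaperones, 6 of 10 cytosolic chaperones and 4 of 11 ER genes were higher in dKO cells, by small amounts, whereas the 3 sensors of the unfolded protein response changed in different directions. At an adjusted p of 0.05 by limma, 18 of the 37 genes were higher in dKO cells and 2, *Ern1* and *Atf6*, were lower, while 17 were not called. Over all 19752 genes, 13.1% were higher and 10.0% were lower. The called increases ran from 1.12-fold for *Ddit3* to 1.47-fold for *Hspa1a*. The median log2 difference was 0.17 for the 37 genes and 0.01 for all genes tested, and 28 of the 37 differences were above 0.

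Brighter genes were called more often on these arrays, and the background was therefore also taken at the level of the stress genes. Among the 4276 genes at least as bright as the median of the 37, a comparison chosen after the values had been seen, 23.2% were higher in dKO cells and 18.8% were lower. Of the 19 stress genes in that range, 11 were higher and 0 were lower by limma, and 0 were lower at an unadjusted p of 0.05. No share of all genes was taken at an unadjusted p, so counts at that threshold, here and below, have no background. Of the 18 dimmer stress genes, 7 were higher and 2 were lower. For 23 of the 37 genes all 3 dKO values lay above all 3 wild-type values, and for 4 genes (*Calr*, *Atf4*, *Ern1* and *Atf6*) all lay below, compared with 21.3% and 16.5% of all genes.

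**Figure D1:**
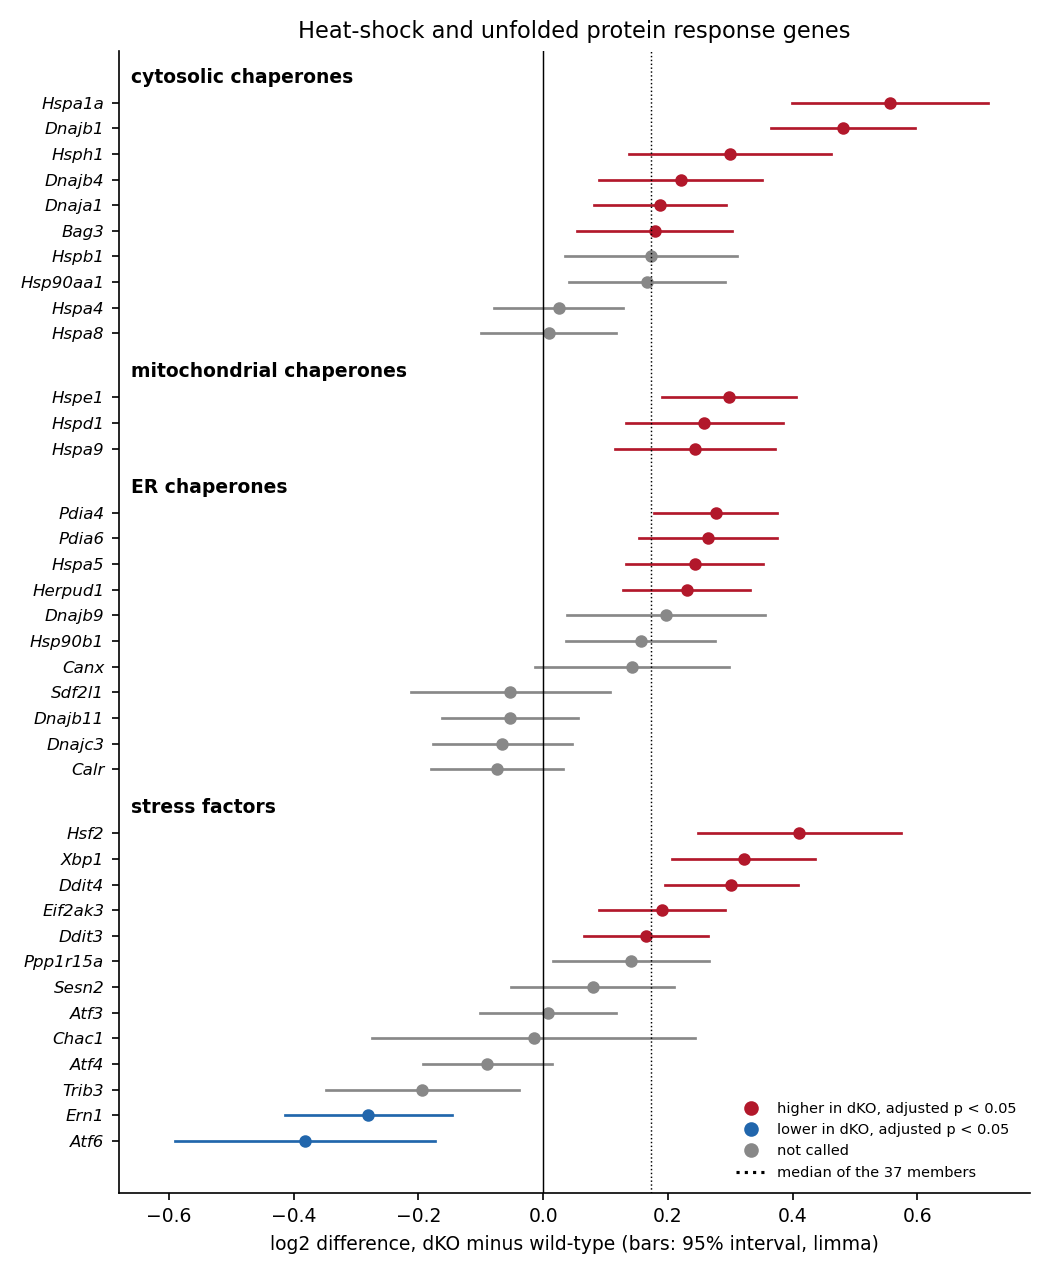
Log2 difference between dKO and wild-type cells for the 37 genes in their 4 groups, with 95% intervals from limma, coloured by call; the dotted line is their median of 0.17. All 3 mitochondrial chaperones and 6 of 10 cytosolic chaperones lie to the right of 0 with red points, and *Ern1* and *Atf6* are the blue points at the bottom.

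**Figure D2:**
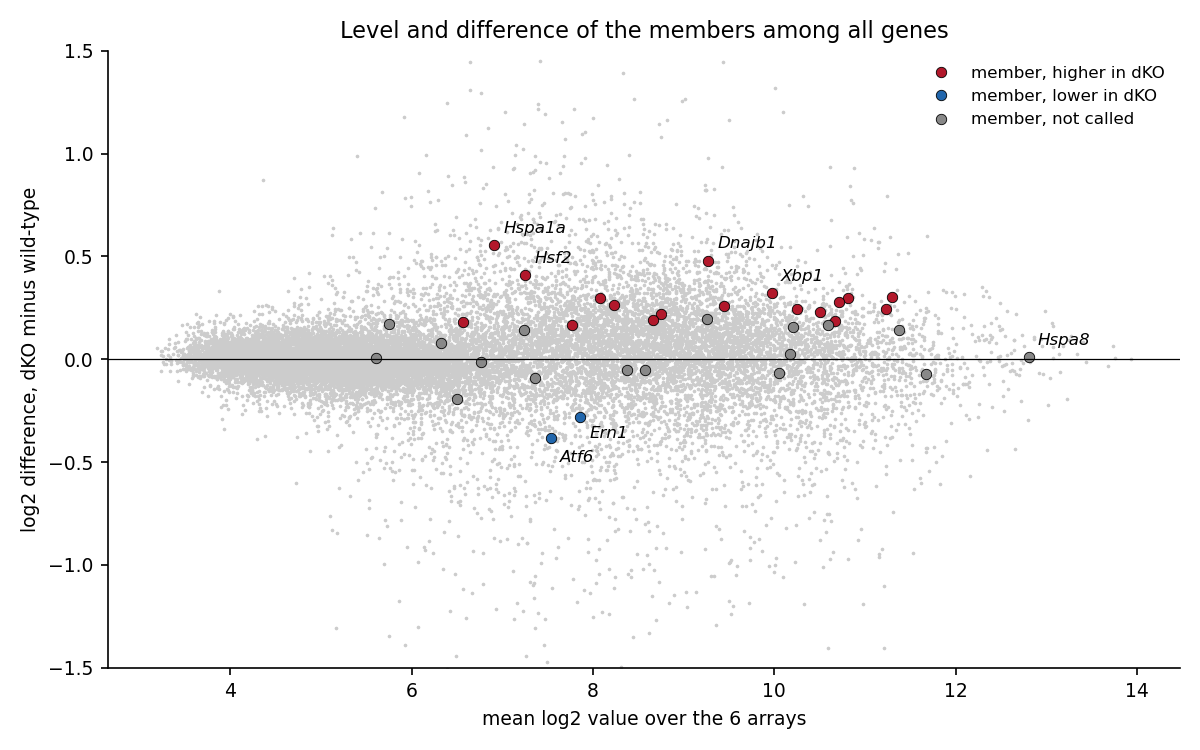
Mean log2 value over the 6 arrays on the horizontal axis and log2 difference between dKO and wild-type cells on the vertical axis, for all genes (grey) and the 37 stress genes (coloured by call); 50 genes lie outside the plotted range. The stress genes sit within the spread of all genes, with 18 red points above 0 and 2 blue points below.

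In the cytosolic group, 6 of 10 measured genes were higher in dKO cells and 0 were lower by limma, with a median log2 difference of 0.18. At an unadjusted p of 0.05, for which no share of all genes was taken, the counts were 8 and 0. The increases were largest for the inducible Hsp70 and for its Hsp40 partner. *Hspa1a*, the inducible Hsp70 that is scarce in unstressed cells, had log2 values of 6.63, 6.65 and 6.61 in wild-type cells and of 7.35, 7.15 and 7.06 in dKO cells. The genotypes did not overlap, and the difference was 0.56 ± 0.07 (SE, 1.47-fold, adjusted p = 0.00034). *Hspa1a* and *Hspa1b* are near-identical copies that can share signal. The value annotated to both was 8.02, 7.91 and 7.74 in wild-type and 8.42, 8.19 and 8.09 in dKO cells, a difference of 0.35 ± 0.09 (SE, adjusted p = 0.027 in a fit over all rows of the array), again without overlap.

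*Dnajb1*, the Hsp40 that hands unfolded proteins to Hsp70, had values of 9.05, 9.06 and 8.98 in wild-type and of 9.55, 9.55 and 9.43 in dKO cells. The gap between genotypes was wider than the spread within either, at 0.48 ± 0.05 (SE, 1.39-fold, adjusted p = 0.00012). *Hsph1*, an Hsp110 that exchanges the nucleotide of Hsp70, had values of 8.09, 7.91 and 7.78 in wild-type and of 8.26, 8.24 and 8.18 in dKO cells. Wild-type replicate 1 came close to the dKO samples, and the difference was 0.30 ± 0.07 (SE, 1.23-fold, adjusted p = 0.014).

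The remaining 3 calls were of smaller differences, and without wild-type replicate 2 only the 3 calls above were left in this group. *Dnajb4*, another Hsp40, had values of 8.70, 8.66 and 8.58 in wild-type and of 8.95, 8.77 and 8.88 in dKO cells (1.17-fold, adjusted p = 0.021). *Dnaja1*, an Hsp40 of the other subtype, had values of 10.56, 10.55 and 10.63 in wild-type and of 10.79, 10.73 and 10.77 in dKO cells (1.14-fold, adjusted p = 0.017). *Bag3*, a cochaperone that links Hsp70 to autophagy, had values of 6.46, 6.52 and 6.46 in wild-type and of 6.59, 6.76 and 6.62 in dKO cells (1.13-fold, adjusted p = 0.043). No dKO value lay below a wild-type value in these 3 genes, yet single arrays decided the calls. The call of *Dnajb4* was lost without dKO replicate 1 (adjusted p = 0.0737), dKO replicate 3 (0.0593), wild-type replicate 2 (0.0587) or wild-type replicate 3 (0.0702). That of *Dnaja1* was lost without dKO replicate 1 (0.0524), wild-type replicate 1 (0.0512) or wild-type replicate 2 (0.0746), and that of *Bag3* without any array but dKO replicate 1, at 0.0585 to 0.148. A dimmer row of *Dnaja1* on the array differed by -0.06 (adjusted p = 0.62), and with the mean of its rows the adjusted p was 0.44.

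The other 4 genes of the group were not called. *Hsp90aa1*, the inducible Hsp90, had values of 10.60, 10.52 and 10.42 in wild-type and of 10.71, 10.68 and 10.64 in dKO cells, without overlap (difference 0.17, 95% interval 0.04 to 0.29, adjusted p = 0.058). It passed the threshold under 6 of the 14 alternatives (adjusted p of 0.0237 to 0.0487), among them without wild-type replicate 1 (0.028). Further rows of the gene gave differences of 0.14 (adjusted p = 0.082) and 0.20 (adjusted p = 0.013). *Hspb1*, a small heat shock protein with a level below the median of the arrays, ranged from 5.53 to 5.77 in wild-type and from 5.81 to 5.85 in dKO cells, and its difference of 0.17 was not called (adjusted p = 0.073). It was called by cyclic loess (0.0352), by a further quantile normalization (0.0359) and without wild-type replicate 3 (0.0249). *Hspa8*, the constitutive Hsc70, had values of 12.74, 12.80 and 12.86 in wild-type and of 12.80, 12.78 and 12.84 in dKO cells. Its genotypes overlapped, and the interval of the difference ran from -0.10 to 0.12 (adjusted p = 0.93). *Hspa4*, an Hsp110 relative, overlapped in the same way, with an interval of -0.08 to 0.13 (adjusted p = 0.77). Further rows of *Hspa8* differed by 0.05 and 0.39, and rows it shares with *Snord14c* and *Snord14d* by -0.19 and -0.20. None of these rows was called in a fit over all rows (adjusted p of 0.064 to 0.53). Wild-type values of the row at 0.39 ran from 11.31 to 12.48.

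All 3 mitochondrial chaperones were higher in dKO cells, with a median log2 difference of 0.26 and no overlap between genotypes. Over all genes 13.1% were higher, and in 21.3% all dKO values lay above all wild-type values. *Hspe1*, the Hsp10 lid of the mitochondrial folding chamber, had values of 10.69, 10.62 and 10.67 in wild-type and of 10.95, 10.91 and 11.01 in dKO cells (difference 0.30 ± 0.05 SE, 1.23-fold, adjusted p = 0.0015). *Hspd1*, the Hsp60 that forms the chamber and shares the promoter printed above, had values of 9.37, 9.35 and 9.22 in wild-type and of 9.62, 9.51 and 9.58 in dKO cells (difference 0.26 ± 0.06 SE, 1.20-fold, adjusted p = 0.0081). Both partners separated the genotypes, and their 95% intervals ran from 0.19 to 0.41 and from 0.13 to 0.38. A further row of each gene gave a difference of 0.31 for *Hspe1* and of 0.39 for *Hspd1*. *Hspa9*, the mitochondrial Hsp70 that pulls proteins through the import channel, had values of 10.21, 10.13 and 10.04 in wild-type and of 10.43, 10.31 and 10.37 in dKO cells (1.18-fold, adjusted p = 0.012). These 3 calls were kept when any of the 6 arrays was left out.

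The ER group was split. Of 11 genes, 4 were higher in dKO cells, 0 were lower and 7 were not called, and the median log2 difference was 0.16. At an unadjusted p of 0.05, 6 were higher and 0 were lower. *Hspa5*, which encodes BiP, the Hsp70 of the ER and the classical readout of the unfolded protein response, had values of 11.08, 11.12 and 11.13 in wild-type and of 11.42, 11.34 and 11.30 in dKO cells. The genotypes were clearly apart, with a difference of 0.24 ± 0.05 (SE, 1.18-fold, adjusted p = 0.0055). *Pdia4*, a disulphide isomerase, had values of 10.56, 10.57 and 10.59 in wild-type and of 10.87, 10.83 and 10.84 in dKO cells (1.21-fold, adjusted p = 0.0013). *Pdia6*, an isomerase that works with BiP, had values of 8.04, 8.13 and 8.13 in wild-type and of 8.36, 8.33 and 8.41 in dKO cells (1.20-fold, adjusted p = 0.0036). Spread within a genotype was at most 0.05 (SD) for both isomerases. *Herpud1*, an ER membrane protein of the degradation machinery, had values of 10.34, 10.41 and 10.41 in wild-type and of 10.63, 10.62 and 10.61 in dKO cells (1.17-fold, adjusted p = 0.0048). These 4 genes kept their calls whichever array was left out.

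Among the other ER genes, 3 had positive differences that were not called, and *Hsp90b1* and *Dnajb9* were near the threshold. *Hsp90b1*, the Hsp90 of the ER, had values of 10.10, 10.10 and 10.18 in wild-type and of 10.36, 10.22 and 10.27 in dKO cells (difference 0.16, interval 0.04 to 0.28, adjusted p = 0.063). *Dnajb9*, a BiP partner and target of Xbp1, had values of 9.18, 9.12 and 9.17 in wild-type and of 9.52, 9.23 and 9.31 in dKO cells (difference 0.20, interval 0.04 to 0.36, adjusted p = 0.077). Neither gene overlapped between genotypes, and each passed the threshold under 2 of the 14 alternatives. These were an intensity trend (adjusted p = 0.0299) and quantile normalization (0.0307) for *Hsp90b1*, and the replicate block (0.0463) and leaving out dKO replicate 2 (0.0345) for *Dnajb9*. *Canx*, the membrane lectin chaperone calnexin, ranged from 11.17 to 11.44 in wild-type and from 11.37 to 11.50 in dKO cells, with overlap (difference 0.14, adjusted p = 0.19, or 0.0472 without wild-type replicate 3).

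The other 4 ER genes had differences slightly below 0, none of them called. *Calr*, which encodes the soluble lectin chaperone calreticulin, had values of 11.67, 11.69 and 11.76 in wild-type and of 11.65, 11.62 and 11.62 in dKO cells. Every dKO value lay below the wild-type values, but the interval of -0.18 to 0.03 held 0 (adjusted p = 0.33). *Dnajc3*, a BiP cochaperone that also restrains eIF2 kinases, differed by -0.07 (interval -0.18 to 0.05), *Dnajb11*, a BiP partner, by -0.05 (interval -0.16 to 0.06), and *Sdf2l1*, a further BiP partner, by -0.05 (interval -0.21 to 0.11). The ER stress element was thus held by 2 called genes, *Hspa5* and *Pdia6*, and by 4 that were not called, *Hsp90b1*, *Canx*, *Calr* and *Dnajc3*.

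**Figure D3:**
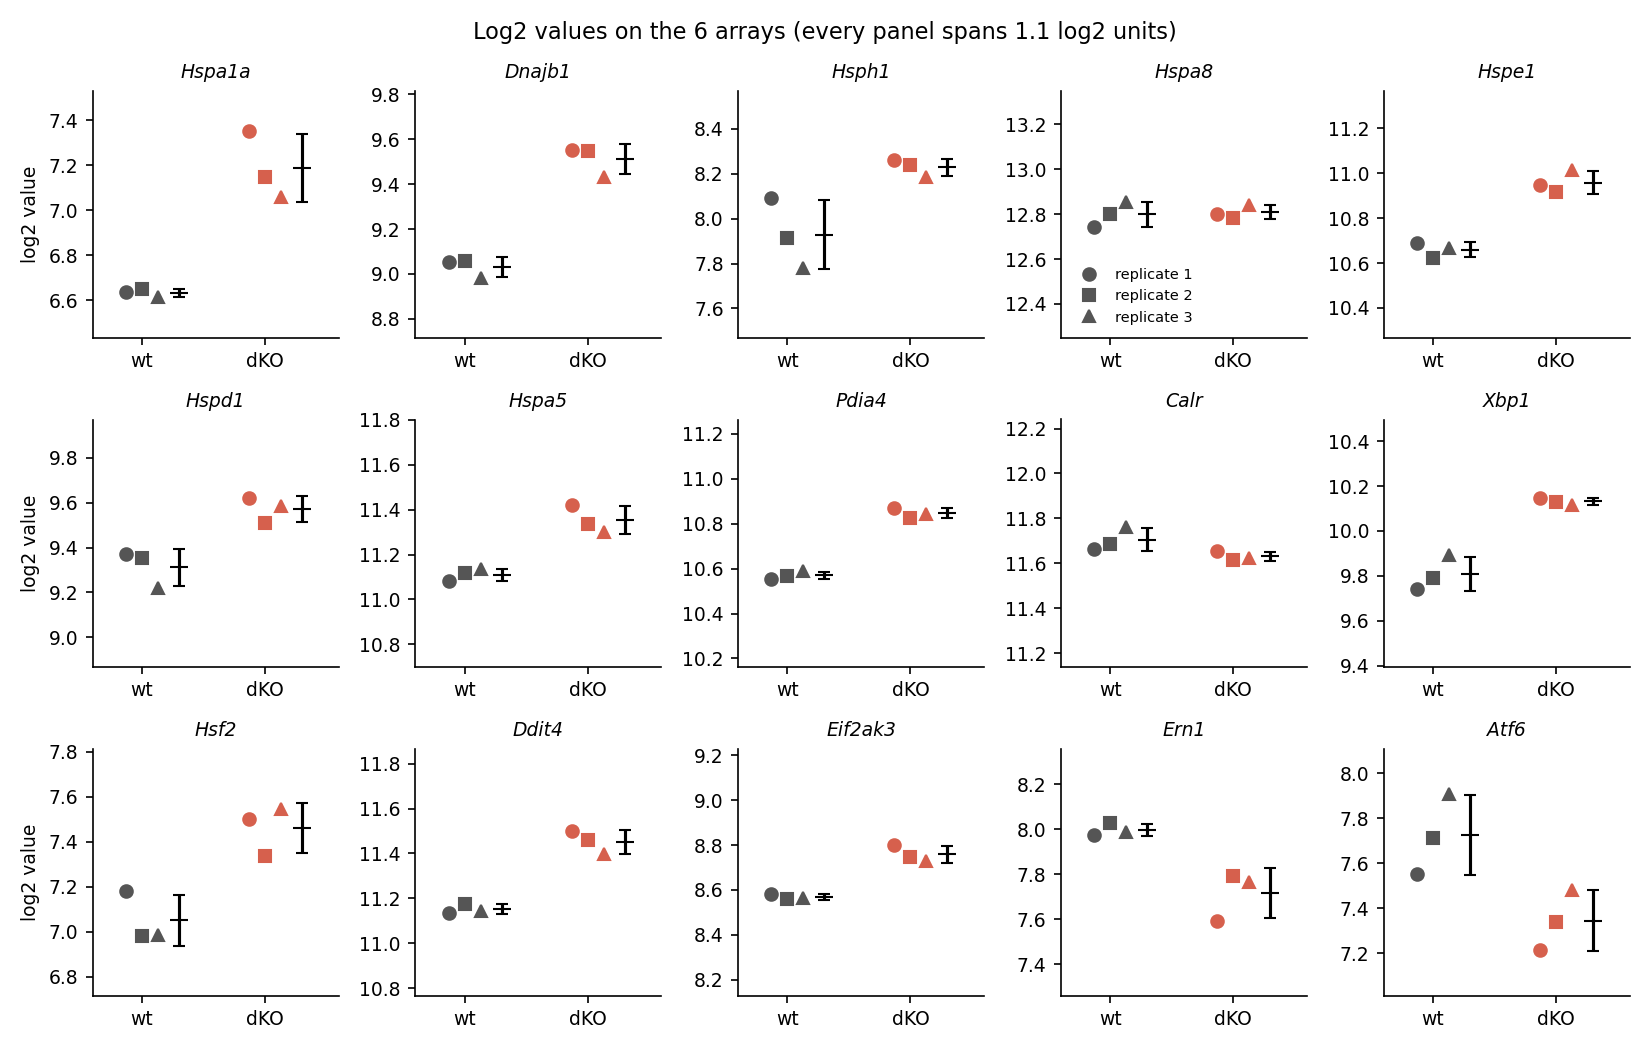
Log2 values of 15 of the genes on the 6 arrays, with wild-type in grey and dKO in red, one symbol per replicate number, and the mean with its SD beside the points. Each panel spans the same number of log2 units, so that the gap of *Hspa1a* and the overlap of *Hspa8* can be compared by eye.

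Of 13 measured stress factors, 5 (38.5%) were higher, 2 (15.4%) were lower and 6 were not called, with a median log2 difference of 0.08. Over all genes 13.1% were higher and 10.0% were lower. The 3 sensors of the unfolded protein response did not move together. *Eif2ak3*, which encodes Perk, had values of 8.58, 8.56 and 8.56 in wild-type and of 8.80, 8.75 and 8.73 in dKO cells (1.14-fold higher, adjusted p = 0.012). *Ern1*, which encodes Ire1, had values of 7.98, 8.03 and 7.99 in wild-type and of 7.59, 7.79 and 7.77 in dKO cells, and fell by 0.28 ± 0.06 (SE) to 82.3% of its wild-type level (adjusted p = 0.0072). *Atf6* had values of 7.55, 7.71 and 7.91 in wild-type and of 7.21, 7.34 and 7.48 in dKO cells, and fell by 0.38 ± 0.09 (SE) to 76.8% (adjusted p = 0.014). Each of the sensors separated the genotypes without overlap, although *Atf6* varied by 0.18 (SD) in wild-type cells. Without dKO replicate 1 the call of *Atf6* was lost (adjusted p = 0.057), which left *Ern1* as the 1 lower gene of the 37. Without wild-type replicate 2 that of *Eif2ak3* was lost (0.0531), and 3 stress factors remained higher.

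Among further transcription factors of both pathways, *Hsf2*, *Xbp1* and *Ddit3* were higher in dKO cells, and *Atf4* and *Atf3* were not called. *Hsf2*, a heat shock factor that cooperates with Hsf1, had values of 7.18, 6.98 and 6.99 in wild-type and of 7.50, 7.34 and 7.55 in dKO cells (difference 0.41 ± 0.07 SE, 1.33-fold, adjusted p = 0.0026). *Xbp1* had values of 9.74, 9.79 and 9.89 in wild-type and of 10.15, 10.13 and 10.12 in dKO cells (difference 0.32 ± 0.05 SE, 1.25-fold, adjusted p = 0.0014). Its value sums over the gene, so that spliced and unspliced mRNA were not distinguished. *Ddit3*, which encodes Chop, had values of 7.72, 7.65 and 7.67 in wild-type and of 7.84, 7.84 and 7.86 in dKO cells (1.12-fold, adjusted p = 0.023). That small call was lost without any single array but wild-type replicate 1, at adjusted p of 0.0511 to 0.0975. *Atf4*, which is controlled largely by translation, had values of 7.38, 7.45 and 7.40 in wild-type and of 7.31, 7.28 and 7.36 in dKO cells. All dKO values of *Atf4* were the lower ones, with a difference of -0.09 that was not called (interval -0.19 to 0.01, adjusted p = 0.22). *Atf3*, a factor induced by Atf4, lay at 5.60 ± 0.05 in wild-type and 5.61 ± 0.03 in dKO cells (SD, n = 3), below the median of the arrays.

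Among the effectors downstream of Atf4 and Chop, 1 of 5 was called. *Ddit4*, an inhibitor of mTORC1 that is also induced by glucocorticoids, had values of 11.13, 11.18 and 11.14 in wild-type and of 11.50, 11.46 and 11.40 in dKO cells (difference 0.30 ± 0.05 SE, 1.23-fold, adjusted p = 0.0013). *Ppp1r15a*, the phosphatase subunit that reverses eIF2 phosphorylation, ranged from 7.11 to 7.23 in wild-type and from 7.23 to 7.39 in dKO cells and was not called (difference 0.14, adjusted p = 0.11). *Trib3*, a pseudokinase induced by Chop, had values of 6.46, 6.64 and 6.69 in wild-type and of 6.33, 6.50 and 6.37 in dKO cells. Its difference of -0.19 was not called (interval -0.35 to -0.04, adjusted p = 0.074), and was called without wild-type replicate 1 (0.0192) and with a replicate block (0.0387). *Chac1*, which degrades glutathione, differed by -0.02 (interval -0.27 to 0.24), the widest interval of the 37 genes. *Sesn2*, an inhibitor of mTORC1, differed by 0.08 (interval -0.05 to 0.21).

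The arrays of a genotype did not contribute evenly. Among dKO samples, replicate 1 had the highest value for 23 of the 37 genes (62.2%), compared with 31.0% of all genes, and for 9 of the 11 ER genes. Without dKO replicate 1, 15 genes were higher and 1 was lower. The fewest genes, 13, were higher without wild-type replicate 2. Of the 20 called genes, 9 kept their call under all 14 alternative settings that were tried, *Hspa1a*, *Dnajb1*, *Hspe1*, *Hspa5*, *Pdia4*, *Pdia6*, *Herpud1*, *Xbp1* and *Ddit4*.

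Genes of other cell types were measured beside these results, and their part in the differences was not tested. Linear levels summed over 12 myeloid and dendritic cell markers were 666 to 758 in wild-type cells and 1008, 778 and 657 in dKO replicates 1, 2 and 3, so that dKO replicate 1 was high here too. Of these markers *Lyz2* was higher in dKO cells (6.75, 6.03 and 5.48, compared with 5.35, 5.43 and 5.03), and *Itgam* and *Cd68* were lower. The call of *Lyz2* was lost under 8 of the 14 alternatives and without 5 of the 6 arrays taken singly (adjusted p of 0.0669 to 0.126), and its difference of 0.81 came to 0.48 without dKO replicate 1. Summed levels of 7 markers of plasma cells, which carry an abundant ER, were 523 to 575 in wild-type and 530 to 556 in dKO cells. Of the 7, *Prdm1* was higher by 0.30, while *Jchain*, at 4.23 and 4.34, and *Sdc1*, at 5.41 and 5.29, were below the median of the arrays. Sums for 8 thymic epithelial markers (512 to 545 and 529 to 555) and 4 erythroid markers (219 to 237 and 221 to 236) overlapped between genotypes, and those of 7 B cell markers (332 to 348 and 283 to 285) and 6 NK cell markers (192 to 236 and 169 to 186) were lower in dKO cells. In the B cell and NK cell lists 1 gene each was called, *Cd79b* (-0.63) and *Nkg7* (-0.54). The other 6 B cell and 5 NK cell markers overlapped between genotypes. Of the epithelial markers *Epcam* and *Cldn4* were called, in opposite directions, and no erythroid marker was called. Summed levels of 7 DP thymocyte markers were 1544 to 1691 in wild-type and 2224 to 2501 in dKO cells, with *Dntt* and *Cd8b1* higher and *Rag1* lower. The call of *Rag1* was lost under 9 of the 14 alternatives and without 4 of the 6 arrays taken singly (adjusted p of 0.0698 to 0.15), and its difference of -0.55 came to -0.35 without wild-type replicate 1.

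Immediate early genes, a further set of genes that respond quickly to stimuli, were counted beside the heat shock genes, and their part in the differences was not tested. Of 16 such genes, 2 were higher in dKO cells (*Klf6* by 0.66 and *Jun* by 0.25) and 4 were lower (*Nr4a1* by -0.66, *Fos* by -0.58, *Ier2* by -0.39 and *Egr2* by -0.37). These were 12.5% and 25%, beside 13.1% and 10.0% of all genes. The calls of *Nr4a1* and *Jun* were lost in the test without moderated variances (adjusted p = 0.128 and 0.0826). By RT-PCR of cells sorted by the same markers, the study found similar *Nr4a1* levels in both genotypes. The summed level of the 16 genes was 11081 to 12225 in wild-type and 10671 to 10888 in dKO cells.

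The wider pathways were given by 157 further genes, of which 150 were measured. Of these, 47 were higher in dKO cells (31.3%) and 8 were lower (5.3%), with a median log2 difference of 0.08. Over all genes 13.1% were higher and 10.0% were lower. Among genes at least as bright as the median of the 37, the shares were 23.2% and 18.8%. The median level of the 150 genes was 8.68, beside 8.76 for the 37. Cytosolic cochaperones were higher in 11 of 31 cases (35.5%) and lower in 2 (6.5%). Most of the 11 increases were lost without 2 to 4 of the arrays taken singly, at adjusted p of up to 0.0932. Only those of *Dnaja4*, *Dnajb2* and *Ptges3* were kept under all 14 alternatives. *Dnaja4*, an Hsp40 inducible by heat, differed by 0.89 (1.85-fold, adjusted p = 2.5e-05), compared with 0.56 for *Hspa1a*, and *Ptges3*, the Hsp90 cochaperone p23, by 0.50 (adjusted p = 0.00022). *Hspa4l*, an Hsp110 relative, and *Dnajc7*, a cochaperone of Hsp70 and Hsp90, were lower by -0.28 and -0.22, and the call of *Dnajc7* was lost without 4 of the 6 arrays taken singly (adjusted p up to 0.0951). Of 14 subunits of the TRiC chaperonin and of prefoldin, which fold actin and tubulin, 5 were higher and 0 were lower, or 7 and 0 at an unadjusted p of 0.05. They were *Pfdn5* (0.45), *Tcp1* (0.39), *Cct4* (0.34), *Cct7* (0.20) and *Cct3* (0.18, lost without 4 arrays). Of 12 other mitochondrial chaperones and proteases, 6 were higher and 0 were lower, the same counts as at an unadjusted p of 0.05, led by the proteases *Clpp* (0.41, adjusted p = 0.00023) and *Htra2* (0.40, adjusted p = 0.0011). The other mitochondrial calls, except that of *Afg3l2*, were lost without 1 to 4 of the arrays taken singly, at adjusted p of up to 0.0965.

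Further ER genes were again split. Of 23 folding and oxidation genes, 8 were higher, among them *Hspa13* (0.54, adjusted p = 0.00033), an ER Hsp70 relative, and *P4hb* (0.28, adjusted p = 0.0021), the main disulphide isomerase, while *Ero1a*, the oxidase that recharges it, was lower by -0.27. Of 17 genes for degradation of ER proteins, 5 were higher (*Selenos*, *Edem2*, *Herpud2*, *Ube2g2* and *Derl3*) and *Edem1*, a classical Xbp1 target, was lower by -0.19. Among 11 other regulators of the unfolded protein response, *Creb3l2*, a membrane-bound factor related to Atf6, was higher by 0.61 (1.52-fold, adjusted p = 5.5e-05) and *Creb3* and *Atf6b* by 0.20 and 0.16, while *Creb3l1* and *Dnajc1* were lower by -0.30 and -0.24. The calls of *Herpud2*, *Ube2g2*, *Derl3*, *Edem1*, *Atf6b* and *Creb3* were lost without 3 to 6 of the arrays taken singly, at adjusted p of up to 0.113.

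The branch from eIF2 to Atf4 was described by further genes. Of 11 genes for eIF2, its kinases and its exchange factor, 4 were higher (*Eif2ak4*, *Eif2s2*, *Eif2b4* and *Eif2s3x*) and *Eif2ak2*, the interferon-inducible kinase, was lower by -0.36. *Eif2ak4*, which encodes the amino acid sensor Gcn2, differed by 0.33 (adjusted p = 0.0012). Of 27 further target genes of Atf4 and Chop, 5 were higher (*Shmt2*, *Gadd45a*, *Iars*, *Cth* and *Aldh18a1*) and *Sesn1* was lower by -0.33, and their median log2 difference was 0.03. *Shmt2*, a mitochondrial enzyme of serine metabolism, differed by 0.46 (adjusted p = 0.00027), and the other 4 increases, of 0.15 to 0.22, were each lost without 2 or more of the arrays taken singly. None of the 4 other genes of the heat shock factor family (*Hsf3*, *Hsf4*, *Hsf5* and *Hsf2bp*) was called, with 0 of them below an unadjusted p of 0.05.

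**Figure D4:**
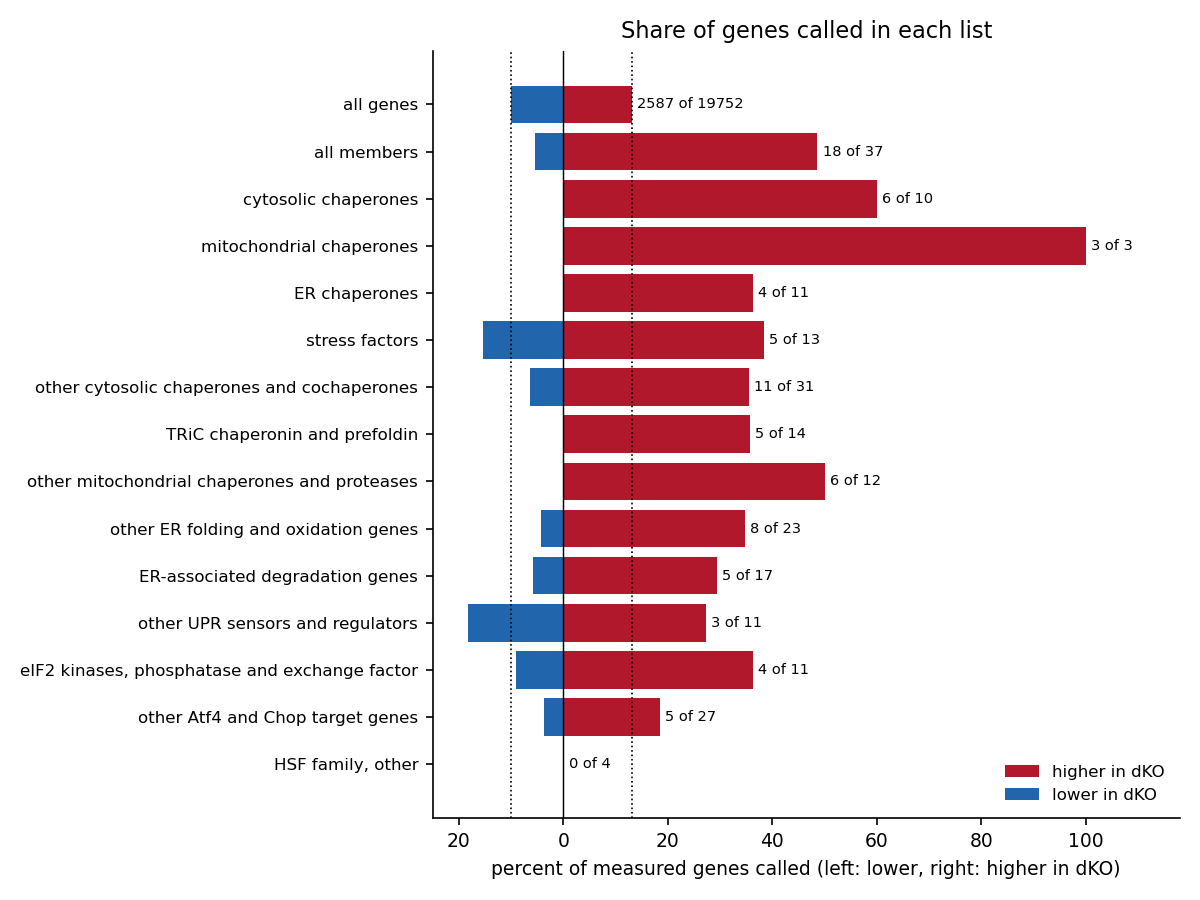
Percent of measured genes called higher (red, to the right) or lower (blue, to the left) in dKO cells by limma, for all genes, for the 37 genes and their 4 groups, and for the 9 lists of further pathway genes. Dotted lines mark the shares of all genes, 13.1% and 10.0%. Not drawn are the shares among genes at least as bright as the median of the 37, 23.2% and 18.8%. The 3 mitochondrial chaperones reach 100%. The share of Atf4 and Chop targets called higher, 5 of 27, lies nearest to the dotted line among the lists with a call.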

How the data were processed

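RNA of 6 samples was hybridized to Affymetrix arrays, Mouse Gene 1.0 ST in the study's methods but Exon 1.0 ST in its design text. The deposited values are log2 intensities, 1 per transcript row and array. Partek and RMA are named in the submitters' processing notes, without versions. RMA corrects background, evens out the distributions of arrays and summarizes probes, so that a shift of most genes in 1 direction would be hidden and differences of dim genes are compressed.

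Of 25254 rows, 21496 were annotated to 1 gene, 1565 to several and 2193 to none. Rows with 1 gene were used, with the brightest row of a gene where there were several (938 genes). The 19752 genes were fitted without further normalization by limma 3.58.1 in R 4.3.3, with genotype as the only term and Benjamini-Hochberg adjustment over all genes, and called at an adjusted p of 0.05. The fit was tested on simulated data before use. The 40 genes, the lists of further genes and the motifs were chosen with earlier results of these data known. Any of the 40 genes could be named, as could up to 4 genes with the smallest p of each further list, genes of a count of 5 or fewer, and defining markers of cell types. Motifs were searched in RefSeq promoter windows of GRCm38.p6, which were matched by symbol. Protein sequences were not analysed here.

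Alternatives were another quantile or cyclic loess normalization, only the 75% brightest genes, the mean of a gene's rows, all rows, an intensity trend with robust variances, a test without moderated variances, a replicate block and each array left out in turn. Tables and plots were made in Python 3.11.15 with matplotlib 3.10.9.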

Additional observations from a re-analysis of the deposited data

How the results depend on the processing

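Of 518 combinations of a gene and an alternative, 460 kept direction and call, 31 lost the call, 16 gained it and 11 reversed, all of the last among genes that were not called. Tests without moderated variances changed the most calls, with 12 of the 37 genes higher and 0 lower, 3 cytosolic and 1 mitochondrial chaperones higher, 0 stress factors lower, and 1392 higher and 1173 lower among all genes. They ended the calls of *Hsph1*, *Hsf2*, *Hspd1*, *Hspa9*, *Atf6*, *Ern1*, *Dnajb4* and *Bag3*. Cyclic loess ended those of *Dnaja1* and *Ddit3* and left 17 higher and 2 lower, but turned the balance of all genes to 2153 higher and 2376 lower.

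With single arrays left out, the counts ranged over 13 to 17 higher and 1 to 3 lower for the 37 genes, 3 to 5 higher for cytosolic, 3 to 3 for mitochondrial and 4 to 5 for ER chaperones, 3 to 5 higher and 1 to 3 lower for stress factors, and 1901 to 2259 higher and 1496 to 1855 lower for all genes.

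Reversed differences were all small. By cyclic loess *Hspa4* came to -0.0212 and *Hspa8* to -0.0317, and by quantile normalization *Hspa8* came to -0.0373. With single arrays left out, *Hspa4* ranged from -0.002 to 0.0386 (below 0 without dKO replicate 3), *Hspa8* from -0.0187 to 0.0367 (below 0 without dKO replicate 3 or wild-type replicate 1), *Sdf2l1* from -0.12 to 0.0235 (above 0 without wild-type replicate 1), *Atf3* from -0.0187 to 0.0359 (below 0 without dKO replicate 1 or wild-type replicate 3) and *Chac1* from -0.15 to 0.126 (above 0 without dKO or wild-type replicate 3). The cause of these changes was not tested.

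Deviations from the genotype means correlated at 0.099, 0.024 and 0.070 between samples of the same replicate number, which does not show that the numbers pair the samples, and dKO replicate 2 correlated best with wild-type replicate 3. With the replicate number as a block, 20 genes were higher and 3 lower, and 2574 and 1970 among all genes. *Hspb1* and *Atf3* lie below the median of the arrays, where small differences are harder to measure.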
